A study of Mus musculus with 6 samples.

Results

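The 4 features described here are long noncoding RNA transcripts of mouse chromosome 1, 1 in the region of the Ifi200 genes and 3 in the region of the Sp100-like genes. They are 4 of the 24817 features in the deposited lncRNA table, and they were picked because their levels differed between the 2 groups of the study, so the group values of these 4 are given as a description and no test is read from them. Assembled transcripts among them are MSTRG.3399.1, in the Ifi200 region, and MSTRG.1610.6 and MSTRG.1624.5, in the Sp100 region. The remaining member, also in the Sp100 region, is the annotated transcript ENSMUST00000162896 of Gm6264, a transcribed pseudogene. The 2305 assembled, 2541 Ensembl and 19971 NONCODE transcripts of the table include these 4.

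The cells were RAW264.7, a macrophage-like line from a virus-induced tumour of a BALB/c mouse. The cells of all 6 libraries were first exposed to lipopolysaccharide (LPS, a bacterial cell wall component that activates macrophages) for 24 h. The medium was then replaced by medium in which bone cement had been extracted. In the group LPS_ES_PMMA (3 libraries) the cement was poly(methyl methacrylate) loaded with the anticoagulant enoxaparin sodium, and in the group LPS_PMMA (3 libraries) it was the cement without it. The titles call the second group LPS_PMMA, while the sample descriptions and the table's columns call it LPS, so whether its medium held cement extract rests on the title and the treatment label. No library of cells without LPS was analysed here. The labels give neither the time in extract medium nor whether the replicates were grown separately, so p-values measure the spread between these libraries, which may be technical.

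Ifi200 genes encode proteins with a pyrin domain, a HIN domain that binds DNA, or both; interferons induce many of them, and relatives such as Aim2 sense DNA in the cytosol and start inflammasome assembly. Sp100, Sp110 and Sp140 encode nuclear proteins that are also induced by interferons and join chromatin-reading domains (SAND, PHD and bromodomain), with Sp100 a component of PML nuclear bodies. In the mouse both families lie on chromosome 1 as clusters of near copies and pseudogenes, which makes the assignment of short reads to 1 copy difficult.

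Reads may be shared between copies, so the sequence of the annotated member, the 1 member with an entry in the reference transcripts, is shown first. ENSMUST00000162896 lies on the plus strand at chr1:85160863-85194260 (mm10, which is GRCm38, as in GENCODE M21) and joins 13 exons to 1217 nt. Exons 1 to 3, at chr1:85160863-85160946, chr1:85163911-85163973 and chr1:85164304-85164384, are 84, 63 and 81 nt long. They are printed because the table holds an assembled feature, MSTRG.1624.1, that may cover the same exons, and because nearly all their bases also occur in C130026I21Rik. Capitals mark the 24 bases that lie in no 50-mer found in a transcript of another gene.
Gm6264 exons 1 to 3: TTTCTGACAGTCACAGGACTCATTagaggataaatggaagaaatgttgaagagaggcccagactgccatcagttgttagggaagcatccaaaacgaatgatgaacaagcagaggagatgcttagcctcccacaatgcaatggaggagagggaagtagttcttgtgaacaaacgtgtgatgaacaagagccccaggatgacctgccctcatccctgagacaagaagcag

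Of the 1217 bases of this transcript, 1086 (89.24%) lay in a 50-mer that GENCODE M21 also has in a transcript of another gene, on either strand, and 13 other genes held such 50-mers. The 131 bases that did not fell in short stretches, the longest 38 nt (bases 414 to 451), 30 nt (bases 792 to 821) and 24 nt (bases 1 to 24). Sp140 shared most, with 423 50-mers that covered 66.97% of the bases. Gm5831, a copy on chromosome 9, shared 421, and Arhgef12 held as many on the opposite strand. Gm2427, a further copy on chromosome 1, shared 417. At a window of 100 bases the share fell to 348 of 1118 windows (31.1%), against 738 of 1168 windows (63.2%) at 50 bases. The last 428 bases aligned to Gm2427 at 98.6% identity, to Gm5831 at 98.1% and to Sp140 at 97.9%, and the first 228 bases aligned to C130026I21Rik, an Sp140-like gene of the cluster, at 99.6%.

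Within the last 428 bases, which align to Gm2427, Gm5831 and Sp140 without a gap, bases 1015 to 1134 are shown. They are the 120 bases there with the most differences between the member and the other 3. Elsewhere Sp140 was more alike over bases 453 to 791, at 99.4% identity with 2 mismatches and without a gap. It was less alike over bases 84 to 330, at 90.8% identity with 8 mismatches and 3 gap openings. In the Gm6264 line capitals mark the bases at which any of the other 3 differs from it. In each other line they mark the bases that differ from Gm6264. The Sp140 stretch lies in its coding sequence.
Gm6264: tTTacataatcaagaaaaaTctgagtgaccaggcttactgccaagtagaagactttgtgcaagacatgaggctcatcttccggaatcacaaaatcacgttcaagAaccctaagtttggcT
Gm2427: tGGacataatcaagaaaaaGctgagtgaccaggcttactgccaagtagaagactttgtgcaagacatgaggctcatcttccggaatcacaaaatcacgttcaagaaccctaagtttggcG
Gm5831: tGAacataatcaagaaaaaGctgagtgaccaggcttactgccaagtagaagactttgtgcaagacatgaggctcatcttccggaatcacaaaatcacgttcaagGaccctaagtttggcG
Sp140: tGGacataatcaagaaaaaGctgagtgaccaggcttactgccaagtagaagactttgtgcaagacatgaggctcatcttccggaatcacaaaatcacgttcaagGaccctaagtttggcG
Over these 120 bases the member differed from Gm2427 at 4 positions, from Gm5831 at 5 and from Sp140 at 5. The sources used here do not give how the authors' counting treated reads that match several copies, or its strand setting, so reads of a gene and of a transcript on its other strand cannot be told apart.

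**Figure D1:**
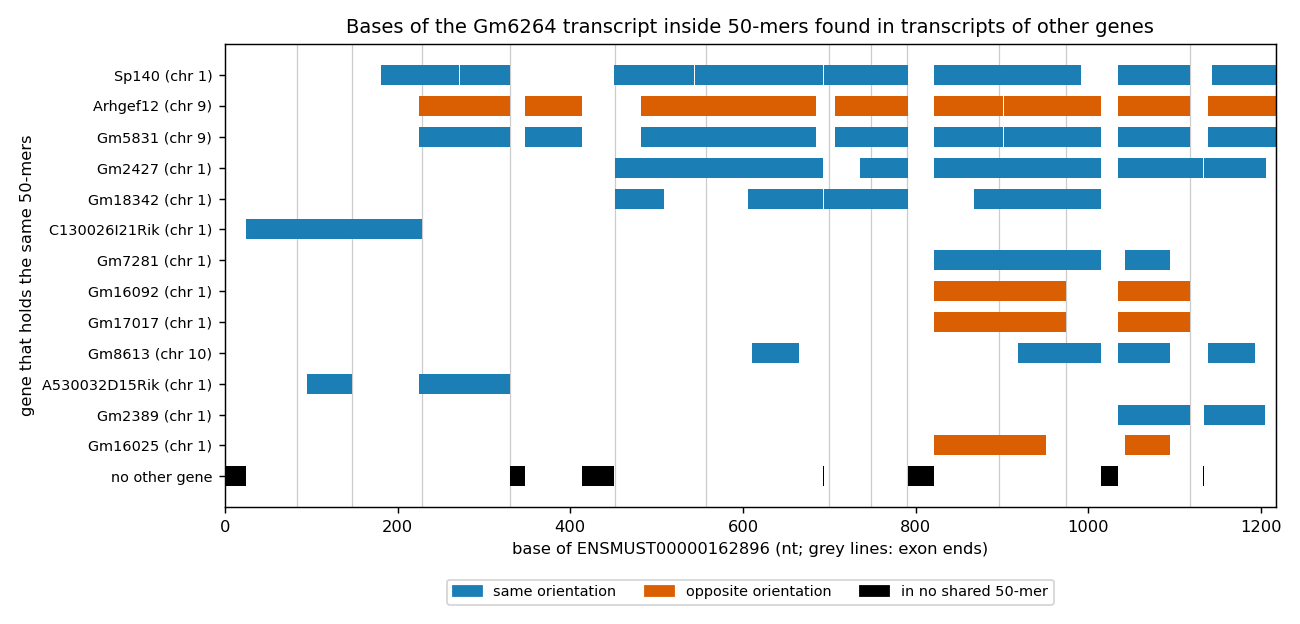
Bases of the 1217-nt Gm6264 transcript (x axis, nt) that lie in 50-mers also found in transcripts of 13 other genes (rows), in the same orientation (blue) or the opposite one (orange), with the bases found in no other gene in black and exon ends as grey lines. Sp140 and Gm5831 cover most of the length, C130026I21Rik covers the start alone, and the black stretches add up to 131 bases.

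The 2 families, as listed here, differed in how much sequence their genes share with other genes. For the longest transcript of each gene, the share of 50-mers also held by another gene had a median of 51.9% over 12 Sp100 family genes (0 to 87.8%), and 6 of the 12 were at 50% or more. Over 14 Ifi200 genes the median was 17.7% (0 to 72.9%), and 1, Ifi211, was above 50%. In that family Ifi204, linked to sensing of cytosolic DNA, shared 30.2%, Mndal 27.2% and Ifi213 5.00%, and Ifi202b shared none. For Ifi205, Ifi213 and Ifi214 the longest transcript is one that retains an intron, so their shares and the median depend on that choice. Ifi211 held 774 50-mers found in Ifi205 transcripts, while the longest Ifi205 transcript held 6 found in any other gene. The pseudogenes Gm7592 and Gm15433 and the noncoding gene Gm16025 are among the 6 Sp100 family genes at 50% or more. The medians thus also depend on which pseudogenes and noncoding genes each list holds. No test of the difference between the families was made, since genes of a family are not independent.

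The listed positions of the assembled members did not match the annotation of the named build. Among 2533 Ensembl features of the table found in GENCODE M21, 2517 had the same start and end. Of the 163 assembled transcripts on chromosome 1, 14 matched 2 or more exons of 1 annotated transcript within 1 Mb. The match was in exact span and spliced length, and 0 of these 14 lay where the matching transcript lies. In size the offsets ran from 22280 to 267803 bp. With sign (annotated minus listed position) they ran from -70224 bp at Tmem70 to 267803 bp at Spata45. Transcripts matching 1700003I22Rik, Ppil3, Eef1b2 and 1700027A15Rik had the same offset of -39159 bp. One of the 14, MSTRG.1624.1, spans 8393 bp with 330 spliced nt, as do exons 1 to 4 of Gm6264 (the first 3 are printed above), 22280 bp away from its listed position. In the Ifi200 region, matches at Aim2 and at the methyltransferase gene Smyd3 on either side of the Ifi200 cluster gave offsets of 172434 and 172435 bp. Assembled transcripts within 5 Mb of the members were then searched for an end within 20 bp of an annotated transcript end. At these offsets 4 of 24 had one around the Sp100 region's members, and 8 of 21 around MSTRG.3399.1. At the listed positions 0 of 24 and 0 of 21 did. Each count at an offset includes the transcript that gave the offset, so part of it was fixed in advance. No other offset was compared. The match rests on lengths, since the files hold no sequence or inner exon ends of assembled transcripts, and whether those positions follow mm10, the one build the submitters' processing notes name, was not settled.

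The genes that the table ties to the assembled members follow the listed positions. MSTRG.3399.1 (1572 nt, listed at chr1:173579225-173735380) is tied to Ifi213 as an antisense transcript, and its listed span also covers Ifi209, Ifi208 and Ifi207. With the offset found at Aim2 and Smyd3, the same span covers Ifi204, Ifi203-ps, Mndal and Ifi211 in place of those genes. MSTRG.1624.5 (1121 nt, chr1:85224375-85248430) is tied to C130026I21Rik, and with the offset found for Gm6264 its start and end lay 15 bp and 144 bp from ends of annotated C130026I21Rik transcripts. MSTRG.1610.6 (3147 nt, chr1:85008660-85286941) is tied to the microRNA gene Gm27907 and spans 278.282 kb, which takes in 15 annotated genes as listed and 13 with the offset. The table's strand column is no guide to orientation: of 947 Ensembl features tied to a gene of the other strand, 947 carry the strand of the tied gene. The word antisense is therefore the table's for these 3 members and was not checked.

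All 4 members passed the filter on low counts, and all 4 were lower in every LPS_ES_PMMA library than in every LPS_PMMA library. Over the 8873 features tested, 14.6% had groups that did not overlap with LPS_ES_PMMA lower and 16.2% with it higher, and edgeR's quasi-likelihood test at a Benjamini-Hochberg adjusted p under 0.05 called 4.76% (2.58% lower, 2.18% higher). Since the members were chosen on this contrast, nothing is read from their count against these shares. Levels below are counts, then CPM (reads relative to the library's total, scaled by the trimmed mean of M values, TMM), and FPKM (fragments relative to transcript length and library total) where genes of different length are set side by side. In these bulk libraries fewer expressing cells and less RNA per cell cannot be told apart.

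Among the members of the Sp100 region, MSTRG.1610.6 had the most reads. It was counted 391, 652 and 596 times in the LPS_PMMA libraries and 216, 104 and 187 times in the LPS_ES_PMMA libraries. The 3 treated libraries lay close together on the scaled measure, at 52.5, 52.7 and 63.0 CPM, and well under the 192, 257 and 215 CPM of the others. Mean levels were 56.0 ± 6.02 and 221 ± 32.6 CPM (SD, n = 3 each), a fitted log2 fold change of -1.98 (SE 0.25), or 3.95-fold lower.

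The Gm6264 transcript ENSMUST00000162896 was counted 56, 80 and 65 times in LPS_PMMA and 14, 19 and 17 times in LPS_ES_PMMA. The table classes it as intronic antisense to Gm2619, a gene model of the same cluster. Its CPM values were 27.5, 31.5 and 23.5 against 3.40, 9.62 and 5.73, and the treated libraries varied more, relative to their mean, than for the other members. The means were 27.5 ± 4.01 and 6.25 ± 3.15 CPM (SD, n = 3 each), with a log2 fold change of -2.18 (SE 0.40).

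MSTRG.1624.5 had the smallest log2 difference of the 4. Its counts were 57, 59 and 44 in LPS_PMMA and 29, 10 and 21 in LPS_ES_PMMA, which scale to 28.0, 23.2 and 15.9 CPM against 7.04, 5.07 and 7.07 CPM. The means were 22.4 ± 6.11 and 6.39 ± 1.15 CPM (SD, n = 3 each), with a log2 fold change of -1.78 (SE 0.32), or 3.43-fold lower.

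In the Ifi200 region, MSTRG.3399.1 had the largest difference of the members. It was counted 65, 81 and 40 times in the LPS_PMMA libraries and 8, 5 and 5 times in the LPS_ES_PMMA libraries. LPS_PMMA replicate 3, at 14.4 CPM, lay below the 32.0 and 31.9 CPM of its group and far above the 1.94, 2.53 and 1.68 CPM of the treated libraries. The means were 26.1 ± 10.1 and 2.05 ± 0.435 CPM (SD, n = 3 each), with a log2 fold change of -3.66 (SE 0.43), or 12.7-fold lower.

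**Figure D2:**
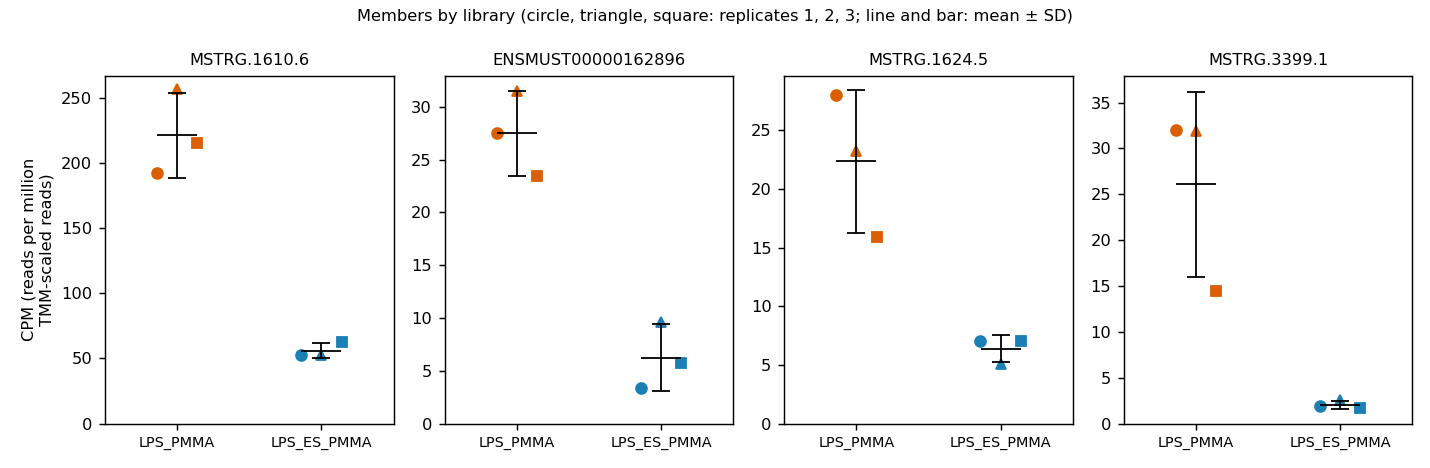
CPM (y axis, from 0, a separate scale for each panel) of the 4 members in the 6 libraries, with circles, triangles and squares for replicates 1, 2 and 3 and a black line and bar for the group mean ± SD. In each panel the 3 LPS_ES_PMMA libraries sit below the 3 LPS_PMMA libraries, from 2.05 against 26.1 CPM for MSTRG.3399.1 to 6.39 against 22.4 CPM for MSTRG.1624.5.

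Per length, the order of the members in LPS_PMMA was led by MSTRG.1610.6 at 42.2 ± 12.5 FPKM. It was followed by ENSMUST00000162896 at 13.3 ± 2.82, MSTRG.1624.5 at 11.4 ± 1.28 and MSTRG.3399.1 at 9.41 ± 2.93 FPKM (SD, n = 3 each). The last 3 lay within each other's spread. In LPS_ES_PMMA the FPKM order was 14.1 ± 1.00, 4.03 ± 1.99, 4.57 ± 1.09 and 1.05 ± 0.281, with the Gm6264 transcript and MSTRG.1624.5 not separable and MSTRG.3399.1 lowest in every library. The authors' deposited table lists the 4 as down, with log2 fold changes of -1.58, -1.72, -1.32 and -3.16 in the same order.

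The scaling moved with the groups. The libraries held 1123551 to 3697638 counted reads, and the TMM factors were 1.29, 1.82 and 0.983 in LPS_ES_PMMA against 0.559, 0.792 and 0.977 in LPS_PMMA. Over all features tested the median was 0.03 (log2) with TMM, 0.82 with column totals alone and 0.46 with the library totals that the FPKM columns imply. The test called 193 features higher and 229 lower with TMM, 302 and 68 with column totals, and 248 and 96 with FPKM-implied totals. All 4 members stayed below 0 under these and every other setting tried, the smallest being -0.98 for MSTRG.1624.5 with column totals. Markers of cell types were hardly in the table, which holds noncoding features only: 2 macrophage genes, Adgre1 and Mertk, and the epithelial gene Krt8 had a tied feature that was tested, and none tied to T cell, fibroblast, B cell or osteoclast genes had enough reads. The feature tied to Adgre1 is an assembled transcript, and whether its listed position follows the annotation was not checked. This feature was at 57.3 ± 6.29 CPM in LPS_PMMA and 39.0 ± 5.69 in LPS_ES_PMMA (-0.55, edgeR adjusted p = 0.238). That tied to Mertk was at 1.97 ± 0.902 and 4.77 ± 0.352 (1.22, edgeR adjusted p = 0.164), and that tied to Krt8 at 33.0 ± 1.80 and 59.5 ± 6.72 CPM (0.85, edgeR adjusted p = 0.0880). None of these 3 passed, and their part in the members' values was not tested. The groups did not overlap for any of them. Over all features the groups did not overlap for 14.6% with LPS_ES_PMMA lower and 16.2% with it higher. The labelled cell type was thus not checked against its defining mRNAs.

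The other features around the members played no part in their choice. They were found by listed position, so both windows set assembled features beside annotated ones without the offsets described above. Within 250 kb of the Sp100 region's members, the Sp100 window, 23 further features were listed, of which 7 had enough reads to be tested; 2 were lower in LPS_ES_PMMA, none was higher, and 5 did not pass. The 7 had a median log2 fold change of -1.20, against 0.03 over all features. All 7 values were below 0, and the groups did not overlap for 6, with LPS_ES_PMMA lower in each. Over all features tested, 2.58% were called lower, and 14.6% had groups that did not overlap with LPS_ES_PMMA lower. The 2 that passed were NONMMUT075875.1 and MSTRG.1624.10. The nearby transcripts may share reads with the members and among themselves, so they are not independent of one another.

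NONMMUT075875.1, an intergenic transcript of 1720 nt at chr1:84941789-84943516, was counted 626, 919 and 851 times in LPS_PMMA and 334, 130 and 301 times in LPS_ES_PMMA. It fell from 326 ± 31.3 to 82.8 ± 17.8 CPM (SD, n = 3 each), a log2 fold change of -1.97 (SE 0.26, edgeR Benjamini-Hochberg adjusted p = 0.0118). The call was lost with column totals (-1.23) and without LPS_ES_PMMA replicate 1 or LPS_PMMA replicate 2, where the log2 fold changes were -1.96 and -1.92. MSTRG.1624.10 (975 nt, listed at chr1:85472531-85483407 and tied to Gm2666), given the same assembled gene number as MSTRG.1624.5, had 152, 246 and 218 reads against 81, 31 and 88. It fell from 83.4 ± 11.8 to 21.7 ± 7.18 CPM, a log2 fold change of -1.94 (SE 0.31, edgeR adjusted p = 0.0186). That call held without LPS_ES_PMMA replicate 3 and was lost without any other 1 of the libraries (log2 fold changes from -2.04 to -1.74 there), and it was also lost with column totals and with FPKM-implied totals (-1.23 and -1.55). With the offset described above, MSTRG.1624.10 lies over Gm2427, the near copy of Gm6264. Its start and end are then 6279 and 8917 bp from annotated Gm2427 transcript ends. That offset rests on MSTRG.1624.1 alone, and the nearest matches on either side of it gave 23356 and 72278 bp.

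MSTRG.1624.1, the assembled feature with the structure of Gm6264 exons 1 to 4, was counted 47, 52 and 40 times in LPS_PMMA and 23, 18 and 24 times in LPS_ES_PMMA. Its means were 19.3 ± 4.44 and 7.60 ± 1.82 CPM (SD, n = 3 each), with a log2 fold change of -1.36 (SE 0.32) that did not pass (edgeR adjusted p = 0.0596). The groups did not overlap on the CPM scale. If both rows describe the same exons, reads of these 330 nt were divided between MSTRG.1624.1 and ENSMUST00000162896, which was not tested. MSTRG.1615.1 and NONMMUT001753.2, which overlap the listed span of Gm6264, had log2 fold changes of -0.98 and -1.20 (edgeR adjusted p = 0.118 and 0.0905). The transcript of Gm16092, ENSMUST00000161449, which holds 91 of the 50-mers of Gm6264 on the opposite strand, was counted 33, 32 and 21 times in LPS_PMMA and 49, 17 and 25 times in LPS_ES_PMMA, with overlapping groups (-0.31, edgeR adjusted p = 0.666).

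**Figure D3:**
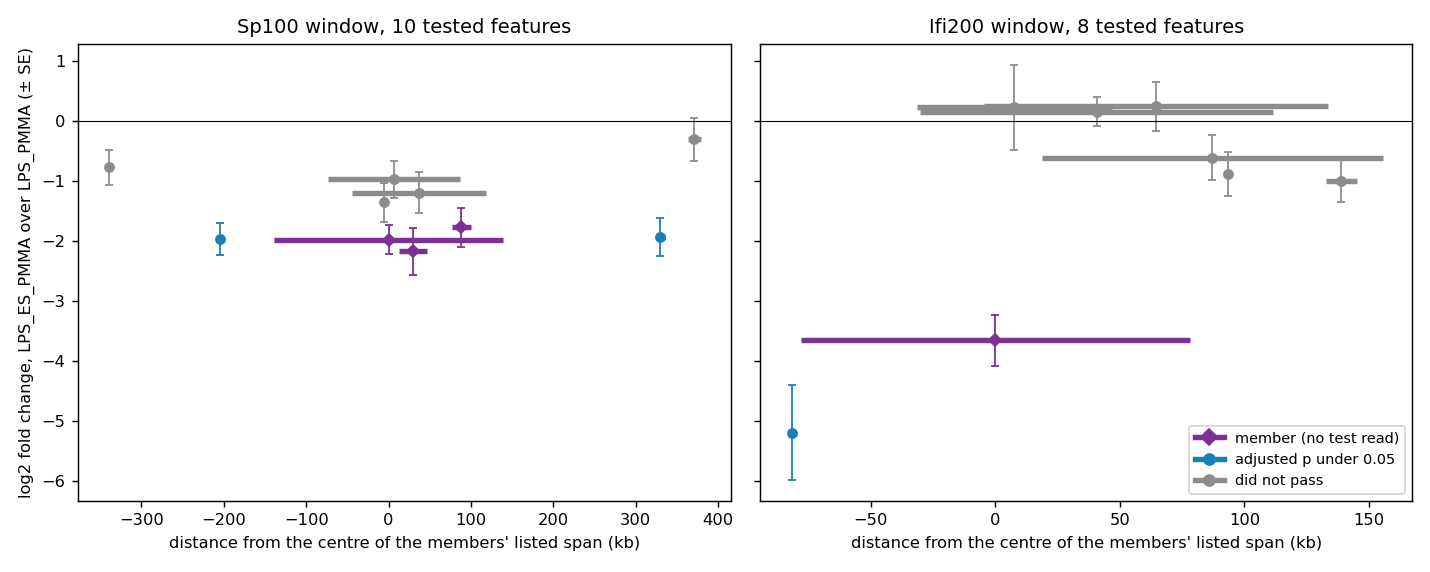
Fitted log2 fold change (LPS_ES_PMMA over LPS_PMMA, y axis, bars ± SE) of the tested features of the Sp100 window (left, 10) and of the Ifi200 window (right, 8) against the distance of their listed spans (horizontal bars) from the centre of the members' span in kb. On the left all 10 lie below 0, and on the right MSTRG.3398.1 and the member MSTRG.3399.1 lie at -5.20 and -3.66 while 3 features lie between 0.15 and 0.24.

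A sum over the window does not depend on how reads were divided among the features summed, though it does on their division with the members left out. Without the members, the 23 features of the Sp100 window held 999, 1427 and 1288 reads in LPS_PMMA and 636, 264 and 517 in LPS_ES_PMMA. The sum fell from 506 ± 49.9 to 154 ± 20.2 CPM (SD, n = 3 each), a log2 fold change of -1.71 (SE 0.24, edgeR adjusted p = 0.0136). NONMMUT075875.1 and MSTRG.1624.10 supplied most of these reads. Without both, a setting chosen after the values were seen, 221, 262 and 219 reads stood against 221, 103 and 128, and the log2 fold change of -0.96 (SE 0.25) did not pass (edgeR adjusted p = 0.0737). The call on the whole sum was also lost with column totals (-0.93) and FPKM-implied totals (-1.29), and without LPS_ES_PMMA replicate 1, LPS_ES_PMMA replicate 3 or LPS_PMMA replicate 2 (edgeR adjusted p from 0.0389 to 0.0756 over the 6 libraries left out in turn).

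Summed over the features that overlap each member's listed span or carry its assembled gene number, the difference had the same direction at the 3 members of the Sp100 region. For MSTRG.1610.6 the 12 such features went from 54.9 ± 9.52 to 23.1 ± 4.72 CPM, a log2 fold change of -1.25 (SE 0.28, edgeR adjusted p = 0.0461), and the call was lost whichever library was left out (log2 fold changes from -1.40 to -1.16) and with column totals (-0.35) or FPKM-implied totals (-0.78). For MSTRG.1624.5 the 9 features went from 133 ± 15.1 to 42.7 ± 4.61 CPM (-1.64, SE 0.24, edgeR adjusted p = 0.0151). That call was lost without LPS_ES_PMMA replicate 1 or 3 or LPS_PMMA replicate 2, and with column totals (-0.84) or FPKM-implied totals (-1.22). For ENSMUST00000162896 the 6 features went from 28.6 ± 3.37 to 12.9 ± 2.97 CPM and did not pass (-1.16, SE 0.28, edgeR adjusted p = 0.0611). The value was -0.28 under column totals and -0.70 under FPKM-implied totals. Overlaps were taken at listed positions, although those of the assembled members did not match the annotation, so an overlap with an annotated feature may be false or missed. The sum for ENSMUST00000162896 took in MSTRG.1615.1 but left out MSTRG.1624.1, the assembled feature with the structure of its first exons. Sums at shifted positions were not made.

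In the Ifi200 region 1 neighbour of the member passed the test. Of the 10 further features within 250 kb of MSTRG.3399.1, the Ifi200 window, 7 were tested, 1 was lower in LPS_ES_PMMA, none was higher and 6 did not pass. The median was -0.62, 4 of the 7 values were below 0, and for 3 the groups did not overlap, with LPS_ES_PMMA lower in each. Over all features tested, 2.58% were called lower, and 14.6% did not overlap with LPS_ES_PMMA lower. The one that passed was MSTRG.3398.1 (472 nt, listed at chr1:173574871-173576916 in an intron of Ifi213), which had 18, 34 and 20 reads in LPS_PMMA and 0, 0 and 2 in LPS_ES_PMMA. Its fitted log2 fold change was -5.20 (SE 0.79, edgeR adjusted p = 0.0165), a value that depends on the prior count since 2 treated libraries were at 0. The call held without LPS_PMMA replicate 1 or LPS_PMMA replicate 3 and was lost without any other 1 of the libraries (-7.74 without LPS_ES_PMMA replicate 3, and -4.93 to -4.47 without the rest). With the offset found at Aim2 and Smyd3, its start lay 12 bp from an annotated end of Ifi204. Its end lay 7603 bp from the nearest annotated transcript end.

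The 4 tested features that overlap MSTRG.3399.1 had log2 fold changes from -0.62 (MSTRG.3397.27) to 0.24 (MSTRG.3405.1), and none passed. MSTRG.3401.1, tied to Ifi209 and the one of them with most reads, was counted 45, 64 and 69 times in LPS_PMMA and 124, 55 and 66 times in LPS_ES_PMMA, or 24.1 ± 1.70 and 26.7 ± 4.06 CPM (0.15, SE 0.25, edgeR adjusted p = 0.771). Listed beyond that span, MSTRG.3414.1, tied to Ifi203-ps, and MSTRG.3412.1, tied to Ifi204, had log2 fold changes of -1.01 and -0.89 with groups that did not overlap, and did not pass (edgeR adjusted p = 0.144 and 0.211). The 6 features that overlap MSTRG.3399.1 summed to 48.2 ± 11.9 CPM in LPS_PMMA and 49.4 ± 2.41 CPM in LPS_ES_PMMA (0.03, SE 0.27, edgeR adjusted p = 0.961). The log2 fold change of this sum turned to -0.18 without LPS_PMMA replicate 1. It was 0.80 with column totals and 0.41 with FPKM-implied totals, where the median over all features was 0.82 and 0.46.

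Summed over the 10 further features of the window, the levels were 81.5 ± 7.33 CPM in LPS_PMMA and 61.3 ± 1.47 CPM in LPS_ES_PMMA (SD, n = 3 each). The log2 fold change of -0.41 (SE 0.22) did not pass (edgeR adjusted p = 0.329). It turned to 0.38 with column totals and to 0.0034 with FPKM-implied totals, where the median over all features was 0.82 and 0.46. MSTRG.3399.1 thus held 30.4, 26.7 and 14.7% of the window's reads in LPS_PMMA and 3.13, 4.0 and 2.60% in LPS_ES_PMMA. In the Sp100 window the 3 members together held 33.5, 35.7 and 35.4% of the window's reads in LPS_PMMA and 28.9, 33.5 and 30.3% in LPS_ES_PMMA. The difference between the windows was not tested.

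**Figure D4:**
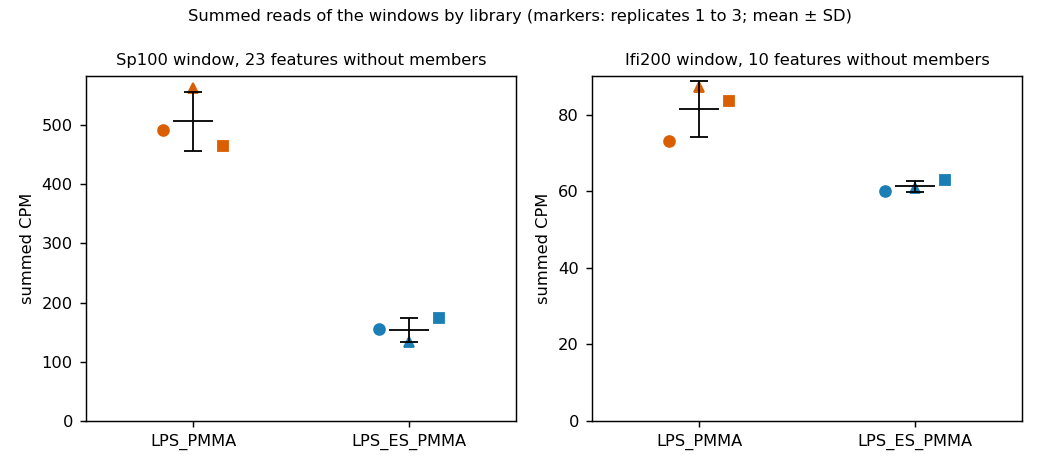
Summed CPM (y axis, from 0) of the features within 250 kb of the members, members left out, in the 6 libraries (markers for replicates 1 to 3, black line and bar for mean ± SD). In the Sp100 window the means are 506 and 154 CPM, and in the Ifi200 window they are 81.5 and 61.3 CPM.

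Features tied to genes of the 2 families, members left out, were read from the same fit. For the Sp100 family 27 features were listed and 8 tested, 2 fell, none rose and 6 did not pass. Their median log2 fold change was -1.25, against 0.03 over all features, of which 2.58% were called lower. Of the 8, MSTRG.1624.1, NONMMUT001753.2 and ENSMUST00000161449 were also tested in the Sp100 window, so list and window are not independent. Both that fell are tied to Sp110, are classed as exonic antisense to it and lie within 500 kb of the Sp100 region's members. NONMMUT001784.2 had 41, 36 and 46 reads in LPS_PMMA against 18, 8 and 11 in LPS_ES_PMMA and fell from 17.0 ± 3.01 to 4.04 ± 0.333 CPM (-2.05, SE 0.30, edgeR adjusted p = 0.0155). NONMMUT001786.2 had 20, 15 and 23 reads against 6, 3 and 5 and fell from 8.01 ± 1.98 to 1.55 ± 0.117 CPM (-2.33, SE 0.40, edgeR adjusted p = 0.0217). The count of 2 became 0 with column totals or FPKM-implied totals, and 0 or 1 whichever library was left out.

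The transcript of Gm17017, ENSMUST00000161540, tied to Sp100, holds 91 of the 50-mers of Gm6264 on the opposite strand, as Gm16092 does. It had 18, 27 and 21 reads in LPS_PMMA and 18, 5 and 11 in LPS_ES_PMMA, or 9.02 ± 1.53 and 3.54 ± 0.931 CPM (-1.30, SE 0.36), and did not pass (edgeR adjusted p = 0.0880). For the Ifi200 family 10 features were listed and 7 tested, the same 7 as in the window, with MSTRG.3398.1 the one that fell.

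Genes of 2 related groups were counted beside them. For genes of PML nuclear bodies, the structures in which Sp100 resides, 6 of 18 listed features were tested and edgeR called 0, with 0 at an unadjusted p under 0.05 and 0 in each of the 16 alternatives, DESeq2 and limma included. The median was 0.37, and the most abundant, NONMMUT056495.2 at the kinase gene Hipk2, was at 40.8 ± 2.17 and 35.5 ± 7.95 CPM in LPS_PMMA and LPS_ES_PMMA. For genes of nucleic acid sensing and inflammasomes, 8 of 24 listed features were tested and edgeR called 0, with 2 at an unadjusted p under 0.05 (21.9% of all features) and 0 in each of the 16 alternatives. Their median was 0.29, and NONMMUT097370.1, near the pore-forming protein gene Gsdmd, was at 206 ± 43.4 and 111 ± 28.7 CPM in LPS_PMMA and LPS_ES_PMMA (-0.89, edgeR adjusted p = 0.126). NONMMUT070147.2, near the DNA sensor gene Cgas, went the other way, at 2.66 ± 1.49 and 6.47 ± 2.26 CPM (1.22, edgeR adjusted p = 0.218).

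Promoters of the 2 families were compared because members at both were lower in the same group. The motif searched was the core of the interferon-stimulated response element (GAAA, any 2 bases, GAAA), on both strands of windows from 250 bases before to 50 bases after each start (RefSeq, GRCm38.p6). It was held by 1131 of 32841 promoters (3.44%), by 10 of 14 Ifi200 promoters (9 of 12 genes) and by 0 of 9 Sp100 family promoters (7 genes). The motif TTCNNNGAA, the form bound by STAT dimers, was held by 8.3% of all promoters, by 1 of 14 in the Ifi200 family and by 0 of 9 in the Sp100 family. The 100 bases before the start, all on the minus strand of chromosome 1, are shown for genes that MSTRG.3399.1 covers at its listed position (Ifi213) or with the offset (Ifi211, Mndal), and for C130026I21Rik, tied to MSTRG.1624.5. Capitals mark the motif, and the windows lie at chr1:173599273-173599372, chr1:173913047-173913146, chr1:173880188-173880287 and chr1:85270567-85270666.
Ifi213: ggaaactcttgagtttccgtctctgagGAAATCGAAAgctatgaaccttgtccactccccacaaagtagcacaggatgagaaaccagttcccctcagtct
Ifi211: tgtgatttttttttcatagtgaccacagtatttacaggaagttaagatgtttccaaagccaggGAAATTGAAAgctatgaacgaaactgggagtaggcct
Mndal: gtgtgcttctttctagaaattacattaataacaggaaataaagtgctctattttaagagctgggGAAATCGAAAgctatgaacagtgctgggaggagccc
C130026I21Rik: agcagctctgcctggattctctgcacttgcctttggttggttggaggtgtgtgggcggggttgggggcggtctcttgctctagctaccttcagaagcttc
The motif begins 73, 37 and 36 bases before the start in Ifi213, Ifi211 and Mndal. In these 3 windows it is followed by the same bases, gctatgaac. These are matches of letters, not sites, and the window of C130026I21Rik holds no match.

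The tested features most like each member over the 6 libraries, by Pearson correlation of log2(CPM + 1) lay outside both windows. For MSTRG.3399.1 they were NONMMUT050987.2 (0.998), MSTRG.11688.1 (0.995) and NONMMUT134983.1 (0.994). For MSTRG.1610.6 they were MSTRG.40265.3 (0.999), ENSMUST00000191750 in Cep350 (0.997) and MSTRG.51684.1 (0.997). For ENSMUST00000162896 they were NONMMUT144625.1 (0.994), MSTRG.6647.1 (0.992) and MSTRG.56154.4 (0.990), and for MSTRG.1624.5 they were NONMMUT122334.1 (0.996), MSTRG.19218.1 (0.995) and NONMMUT088798.1 (0.995). Each was taken from 8869 features, the libraries share their depth and scaling, and no test is made. All 12 were lower in LPS_ES_PMMA with groups that did not overlap, which follows from likeness to members chosen for a difference between the groups.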

How the data were processed

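RNA of 6 libraries of the RAW264.7 line was sequenced from SMARTer mRNA-seq libraries, per the labels' protocols. The authors deposited 1 lncRNA table with a read count and an FPKM value per feature and library, plus their own log2 fold changes, p-values and FDR. The build is mm10 per the submitters' processing notes. Aligner, assembler, counter and strand setting: not given in the sources used here.

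Counts were fitted in edgeR 4.0.16 (R 4.3.3) with TMM scaling and filterByExpr (minimum count 10, total 15), LPS_ES_PMMA against LPS_PMMA, 3 libraries each, by the quasi-likelihood F-test with Benjamini-Hochberg adjustment over 8873 features at 0.05. Totals per library ran from 1123551 to 3697638, so a member with 5 reads in a library carries a large counting error. Alternatives used DESeq2 1.42.0, limma 3.58.1 on log2(FPKM + 0.1) and log2(FPKM + 1), other scalings, filters, windows and left-out libraries. The fit was tested on simulated counts. Correlations of the deviations of same-numbered libraries were -0.020, -0.025 and -0.093. Pairing by replicate number was thus not seen, and 3 libraries per group are too few to exclude it.

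The members and the gene lists were chosen with earlier results of these data known. Named were the members, features that overlap them or share their assembled gene number, window features past the threshold or among the 3 highest by mean FPKM, the 3 features most like each member, and up to 5 tied features per list. The lists were the Ifi200 family, the Sp100 family, PML nuclear body genes, nucleic acid sensing genes and cell type markers. A feature counted as tied to a listed gene when the table names that gene or, if annotated, when it lay within 10 kb. Sequences came from GENCODE M21 transcripts (GRCm38) and RefSeq promoters (GRCm38.p6), aligned with blastn 2.17.0. Gene models of the later assembly GRCm39 were not used here.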

Additional observations from a re-analysis of the deposited data

How the results depend on the processing

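The members stayed below 0 in all 16 alternatives, but their size moved with the scale. With column totals the log2 fold changes of MSTRG.3399.1, MSTRG.1610.6, ENSMUST00000162896 and MSTRG.1624.5 were -2.81, -1.21, -1.29 and -0.98. With FPKM-implied totals they were -3.17, -1.58 and -1.30 for the assembled members in that order. limma on log2(FPKM + 0.1) gave these 3 as -3.03, -1.52 and -1.32, and limma on log2(FPKM + 1) gave the 4 as -2.31, -1.47, -1.56 and -1.17. With 1 library left out they ran from -3.97 to -3.52, -2.11 to -1.89, -2.58 to -1.85 and -1.99 to -1.62. The median over all features also moved with the scale. With that median subtracted, the 4 stood at -3.69, -2.01, -2.21 and -1.81 with TMM. The same 4 were at -3.63, -2.03, -2.11 and -1.80 with column totals, and at -2.66, -1.82, -1.91 and -1.52 with limma on log2(FPKM + 1).

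Of all features, 174 passed without a filter on low counts (64 higher, 110 lower), 200 with a mean FPKM of at least 1, and 50 to 136 with 1 library left out, against 422. The 2 further features called in the Sp100 window became 0 with column totals, 1 with FPKM-implied totals, 1 with limma on log2(FPKM + 0.1), 1 within 100 kb, 4 within 500 kb and 0 to 2 with 1 library left out. The 1 called in the Ifi200 window, and in the Ifi200 list, became 0 to 1 with 1 library left out. The 2 of the Sp100 list became 0 with column totals, FPKM-implied totals or limma on log2(FPKM + 0.1), 1 without a filter or with limma on log2(FPKM + 1), and 0 to 1 with 1 library left out.

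The summed Sp100 window was at -0.93 with column totals, -1.29 with FPKM-implied totals, -0.96 without its 2 features with most reads and -1.84 to -1.60 with 1 library left out. The summed Ifi200 window turned to 0.38 with column totals and 0.0034 with FPKM-implied totals, and ran from -0.51 to -0.38 with 1 library left out. Over all features the median was 0.82 with column totals, 0.46 with FPKM-implied totals and 0.47 and 0.35 with limma (0.1 and 1). The sum at MSTRG.3399.1 was at 0.80 with column totals, 0.41 with FPKM-implied totals and 0.44 and 0.43 with limma (0.1 and 1), turned to -0.18 without LPS_PMMA replicate 1 and reached 0.17 without another library. The sum at MSTRG.1610.6 no longer passed at -0.35 (column totals), -0.78 (FPKM-implied totals), -1.25 (no filter, and again with a mean FPKM of at least 1), -0.75 and -0.73 (limma with 0.1 and 1), or -1.40 to -1.16 (1 library left out). The sum at MSTRG.1624.5 no longer passed at -0.84 (column totals), -1.22 (FPKM-implied totals) or -1.11 (limma with 0.1), and ran from -1.76 to -1.57 with 1 library left out. The sum at ENSMUST00000162896, which did not pass, was at -0.28 with column totals, -0.70 with FPKM-implied totals and -0.67 and -0.63 with limma (0.1 and 1), and ran from -1.29 to -1.03 with 1 library left out. Why these calls changed was not tested, except that fits with 1 library fewer have fewer samples.

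With the number in the titles as a replicate block, 41 features passed (10 higher, 31 lower), and the counts of the Sp100 window, the Ifi200 window, the Ifi200 list and the Sp100 list were each 0. The summed Sp100 window was then -1.72, the sum at MSTRG.1610.6 -1.25 and the sum at MSTRG.1624.5 -1.64, none of which passed. No library correlated best with its own number, which cannot exclude pairing with 3 libraries per group.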
